A study of Rattus norvegicus with 59 samples.

Results

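The comparison described here is iP against iNP in the hippocampus, taken as the arrays whose sample title begins with that region: 12 of the 59 arrays of the series, 6 from iP rats (animals 1 to 6) and 6 from iNP rats (animals 7 to 12). Both are inbred lines derived from rats selectively bred on voluntary alcohol drinking, iP (iP5C in the design text) for preferring and iNP (iNP1) for not preferring it. All rats were adult males, housed in pairs with free chow and water on an equal light and dark cycle, accustomed to handling, and killed by decapitation. The labels name no alcohol exposure or other treatment. Each group is 1 inbred line, so its rats share a genotype and n counts rats, not lines. Total RNA of each rat was extracted with Trizol, labelled with biotin on its own and measured on an Affymetrix rat expression array, and the other arrays are cortex, striatum, amygdala and nucleus accumbens of the same animals. The line was read from the title and the genotype label, because the source name field reads iNP on every array alike.

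The hippocampus is a cortical structure of the temporal lobe that stores and retrieves memories of places and events. Its dentate gyrus and pyramidal cell fields are wired in a glutamatergic loop under the control of GABA interneurons, and the circuit takes part in the contextual learning that links surroundings to drug and alcohol reward. Selective breeding followed by inbreeding fixes alleles that act on the selected trait and, by drift and linkage, many that do not.

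The question was which transcripts of this region differ between the lines. The tissue label was checked first. Of 15 tested markers of hippocampal neurons, 11 were higher in hippocampus than in the mean of the other 4 regions and 4 were lower, where 11.4% of all tested genes were higher by limma. Signals are given on the log2 scale throughout. Htr5b, a serotonin receptor gene of hippocampal neurons, lay at 9.68 to 10.07 in hippocampus and at 5.46 to 8.89 in the other regions. Median linear signal was 317 to 358 on the iP arrays and 308 to 354 on the iNP arrays, and no array repeated another. Exact permutation tests of median signal and of the Gapdh and beta-actin 3′ to 5′ ratios gave p = 0.548, 0.794 and 0.569 between the lines (two-sided, adjusted p = 0.794 for each). Choroid plexus markers were uneven between arrays. Ttr, the transthyretin gene of that tissue, read 13.53, 12.06, 14.32, 15.01, 9.28 and 9.39 in iP animals 1 to 6, against 10.75, 11.73, 15.18, 15.55, 13.58 and 10.30 in iNP animals 7 to 12. In the other regions Ttr lay between 6.35 and 8.81. High and low arrays occurred in both lines. The mean of 8 tested choroid markers ran from 8.79 to 10.68 in iP and from 8.89 to 11.18 in iNP, and none of the 8 was called between the lines by limma (0 at an unadjusted p under 0.05).

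Hippocampus of iP rats had far more signal for Hs6st1, Akap11 and Mfsd10 than that of iNP rats, and far less for Ddx42, Tmtc3, Lysmd4 and Paqr3. Smaller falls covered class I histocompatibility transcripts, the microglial receptor gene P2ry12, the glutathione transferase gene Gsta4 and the serine synthesis gene Phgdh. With limma, 35 of 5244 probe sets passed a Benjamini-Hochberg adjusted p under 0.05, or 0.667% (n = 6 and 6). In iP 11 were higher (0.21%) and 24 lower (0.458%), while the median difference over all tested probe sets was 0.0043. The lines did not overlap in 32 of the 35, and in 67 of all tested probe sets (1.28%). Of the 35, 28 carry 1 gene symbol and stand for 26 genes, 9 higher and 17 lower. Most differences were modest: 11 exceeded 1 in absolute log2 value and 5 were under 0.5. RNA came from whole dissected tissue, so fewer cells of a type and less RNA per cell cannot be told apart. The probes were designed for a reference sequence, and a sequence difference between the lines under a probe cannot be told apart from a difference in transcript level.

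**Figure D1:**
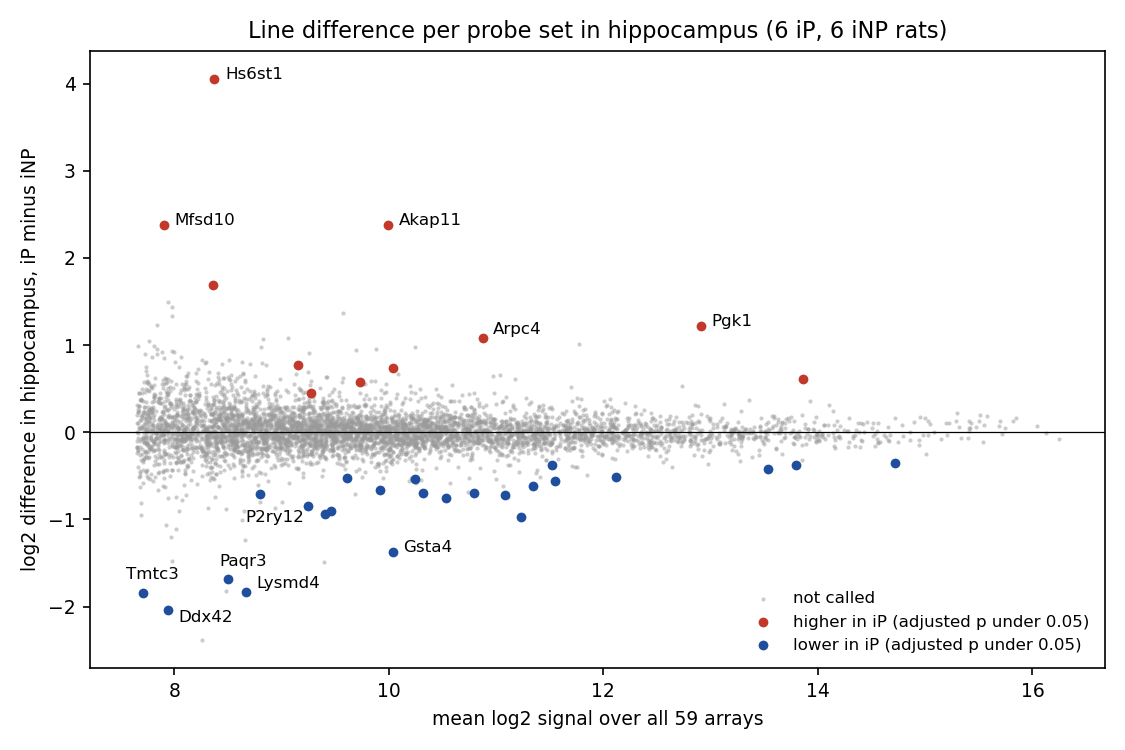
Log2 difference in hippocampus (iP minus iNP, vertical) against the mean log2 signal over all 59 arrays (horizontal) for 5244 probe sets, with called probe sets in red (higher in iP, 11) and blue (lower in iP, 24). Called differences ran from Hs6st1 at 4.05 to Ddx42 at -2.04, and Tuba1b, the called gene of highest mean signal, was at -0.35.

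The scatter of difference against level shows a gray cloud that widens to the left. Some called probe sets of high signal had small differences, though Pgk1, also bright, was at 1.22. Among the genes that passed the threshold, Tuba1b, an alpha-tubulin gene, had the highest mean level and the smallest difference. It fell by 0.35 ± 0.06 (SE, limma adjusted p = 0.00945), with 14.38 to 14.55 in iP and 14.72 to 14.95 in iNP.

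Hs6st1 encodes an enzyme that adds sulfate groups to the sugar chains of heparan sulfate, which bind growth factors at the cell surface. Its log2 signal was 10.98, 9.83, 10.31, 10.94, 10.71 and 10.51 in iP rats, against 6.14, 6.75, 6.29, 6.77, 6.13 and 6.86 in iNP rats. The difference of 4.05 ± 0.21 (limma adjusted p = 8.83e-08) is a 16.6-fold higher signal in iP. Every iP rat stood well above every iNP rat, and the gap was wider than the whole range of either line. Akap11, an anchoring protein that holds protein kinase A near its substrates, read 10.84, 11.20, 11.45, 11.04, 11.23 and 11.00 in iP and 9.06, 8.45, 8.64, 8.36, 9.02 and 8.98 in iNP. It rose by 2.37 ± 0.15 (adjusted p = 3.4e-07), again with no overlap.

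Mfsd10, a transporter of the major facilitator family, read 9.09, 8.86, 9.02, 9.09, 9.04 and 9.11 in iP and 5.43, 7.84, 6.19, 6.25, 6.99 and 7.26 in iNP. The iP rats were tightly grouped and the iNP rats widely spread, with iNP animal 8 the nearest to iP. The rise was 2.38 ± 0.33 (limma adjusted p = 0.00159). Pgk1, a glycolytic kinase, had 13.29, 13.85, 13.49, 13.30, 13.47 and 13.35 in iP, against 12.21, 12.85, 11.72, 12.33, 12.33 and 12.01 in iNP. It rose by 1.22 ± 0.16 (adjusted p = 0.00078) without overlap. A further Pgk1 probe set, designed on another sequence record, differed by 0.02 (adjusted p = 0.974), so the probe sets of this gene disagree. Arpc4, a subunit of the Arp2/3 complex that starts branched actin filaments, lay at 11.30 to 11.69 in iP and at 10.30 to 10.54 in iNP, a rise of 1.08 ± 0.09.

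The other rises were under 1. Atic, which completes purine ring synthesis with a folate-borne carbon, rose by 0.77 ± 0.14 (9.27 to 9.80 in iP, 8.47 to 9.22 in iNP). Tnfrsf21, the death receptor gene also known as DR6, rose by 0.74 ± 0.08 at one probe set, while a brighter probe set on the same record differed by -0.09 (limma adjusted p = 0.896). Grb14, an adaptor that restrains the insulin receptor, rose by 0.44 ± 0.09 (adjusted p = 0.0337). Slit1, a repellent ligand for growing axons, rose by 0.57 ± 0.12 (adjusted p = 0.0411). Here the lines overlapped, since iP animal 2 read 9.76 and iNP animals 7 and 11 read 9.76 and 9.80. A second Slit1 record gave nearly the same difference, 0.59, and missed the threshold (adjusted p = 0.104). Atic lost its call without iP animal 6 (adjusted p = 0.0551). Grb14 lost it in 9 of the 12 fits that left out 1 rat each (all but those without iP animal 4, iNP animal 9 or iNP animal 11), and Slit1 in 10 of 12 (all but iP animal 2 or iNP animal 11). The highest adjusted p in those fits was 0.0851 for Grb14 and 0.114 for Slit1.

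**Figure D2:**
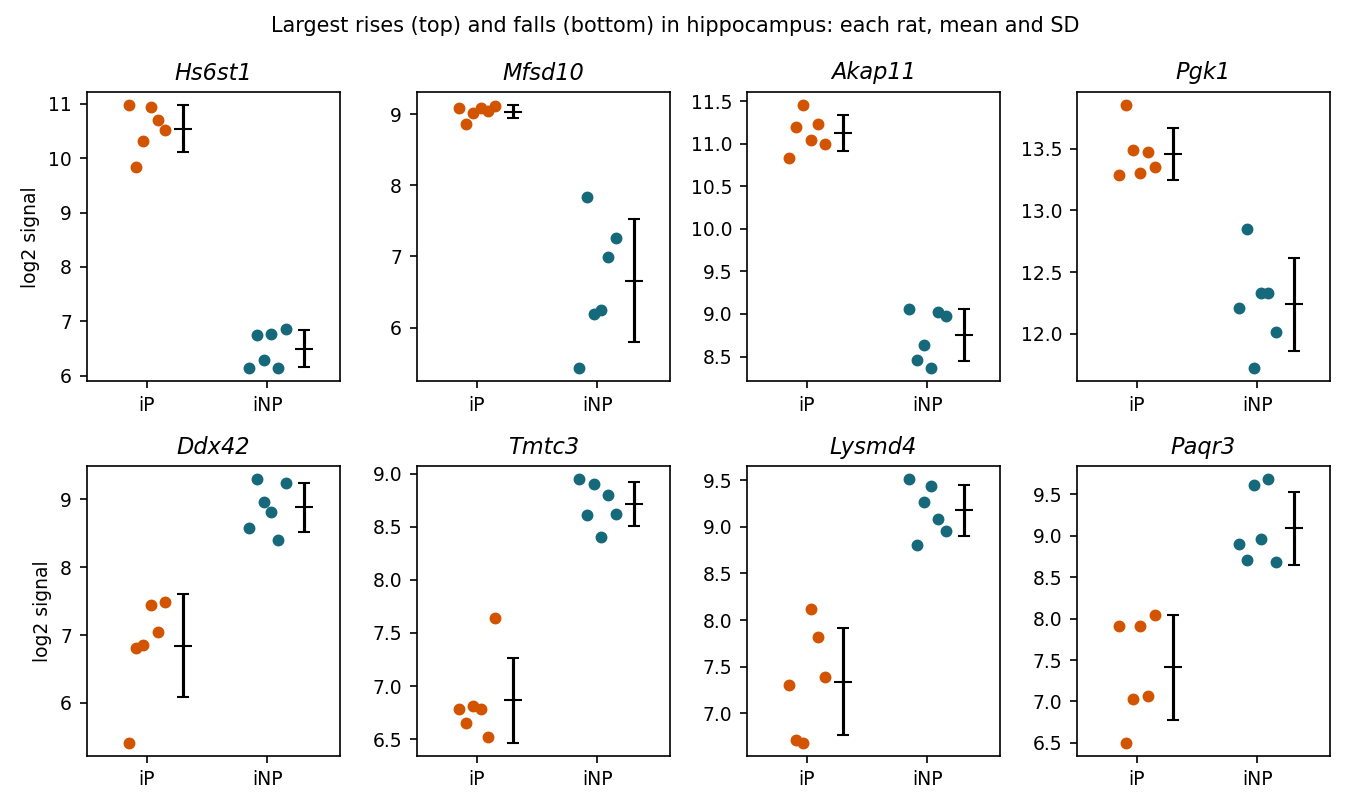
Log2 signal (vertical) of the 4 largest rises, Hs6st1, Mfsd10, Akap11 and Pgk1, and the 4 largest falls, Ddx42, Tmtc3, Lysmd4 and Paqr3, in hippocampus of iP rats (orange, left) and iNP rats (teal, right). Points are single rats and bars the mean and SD (n = 6 each), and the lines do not overlap in any of the 8 panels.

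The plots of single rats show the same separation for the 4 largest falls. Ddx42, an RNA helicase, read 5.42, 6.80, 6.86, 7.45, 7.05 and 7.49 in iP, against 8.57, 9.29, 8.96, 8.81, 8.40 and 9.24 in iNP. It fell by 2.04 ± 0.32 (limma adjusted p = 0.0045), with iP animal 1 lowest by more than 1. Tmtc3 encodes a protein of the endoplasmic reticulum that places mannose on cadherins. It read 6.79, 6.65, 6.81, 6.78, 6.52 and 7.64 in iP and 8.95, 8.61, 8.90, 8.40, 8.80 and 8.62 in iNP, and fell by 1.85 ± 0.21 (adjusted p = 0.00025). Among the iP rats, animal 6 was the highest and still below every iNP rat.

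Lysmd4, a LysM domain gene, read 7.31, 6.72, 6.69, 8.12, 7.81 and 7.39 in iP, against 9.51, 8.81, 9.26, 9.44, 9.09 and 8.96 in iNP. It fell by 1.84 ± 0.25 (limma adjusted p = 0.0012). A brighter probe set on the same record differed by -0.75 and did not pass (adjusted p = 0.183). Paqr3, which holds Raf kinases at the Golgi apparatus, read 7.91, 6.50, 7.02, 7.91, 7.07 and 8.05 in iP, against 8.90, 8.71, 9.61, 8.97, 9.68 and 8.68 in iNP, and fell by 1.68 ± 0.29 (adjusted p = 0.00945). Both genes were lower in every iP rat than in any iNP rat.

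Gsta4, a glutathione transferase that clears products of lipid peroxidation, is a member of the list of preference candidates. It read 9.13, 9.21, 9.50, 9.38, 9.16 and 9.34 in iP and 10.66, 10.45, 10.64, 11.27, 10.44 and 10.47 in iNP. It fell by 1.37 ± 0.14 (limma adjusted p = 0.00011), and a dimmer probe set on the same record fell by 0.84 ± 0.13 (adjusted p = 0.00524). The lines were apart at both probe sets. None of the other 16 tested genes of glutathione transferases and glutathione synthesis was called. The smallest p values among them belonged to Gstm7 and Gclm, at log2 differences of 0.29 and 0.86. Of the 17, Gsta4 included, 2 had an unadjusted p under 0.05, where 6.77% of all tested genes did. The median difference of the 17 was 0.01, against -0.01 over all 3174 tested genes, each represented by its brightest probe set (21 called, 0.662%).

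Genes listed under serine, asparagine and one-carbon synthesis held 3 calls among 7 tested genes, where 0.662% of all tested genes were called. Of the 7, 4 had an unadjusted p under 0.05, where 6.77% of all did. The list was compiled with earlier results of these data known, so its share of calls is no test of the pathway. Phgdh, the first enzyme of serine synthesis from a glycolytic intermediate, is made mainly by astrocytes in adult brain. It fell at both probe sets of one record, by 0.72 ± 0.07 (limma adjusted p = 0.000142) and by 0.55 ± 0.10 (adjusted p = 0.0147). At the probe set of the larger fall iP rats read 10.60 to 10.98 and iNP rats 11.47 to 11.57. A dim probe set on another Phgdh record differed by -0.19 (adjusted p = 0.859). Sephs2 makes selenophosphate, the selenium donor for selenoproteins. It read 8.50, 8.46, 8.71, 8.97, 8.96 and 8.53 in iP and 9.36, 9.46, 9.34, 9.53, 9.17 and 9.51 in iNP, and fell by 0.71 ± 0.12 with no overlap. Atic, given above, rose. The asparagine synthetase gene Asns (0.46) and Mthfd1 (-0.15) did not pass, so the list moved in no common direction (median -0.04, 3 positive and 4 negative). The mean of 11 astrocyte markers was 11.69 to 11.92 in iP and 11.46 to 11.87 in iNP, with no member called by limma (0 at an unadjusted p under 0.05).

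Class I molecules of the major histocompatibility complex present peptides to cytotoxic T cells, and in neurons they also take part in synapse remodelling. RT1-A, a class I heavy chain gene, read 10.53, 10.36, 10.36, 10.68, 10.56 and 10.52 in iP, against 11.10, 11.10, 11.20, 11.44, 11.10 and 11.23 in iNP, and fell by 0.70 ± 0.09 (limma adjusted p = 0.000618). RT1-CE12, another class I gene, read 11.04, 11.01, 10.95, 11.00, 10.97 and 10.90 in iP, against 11.41, 11.63, 11.53, 11.99, 11.53 and 11.49 in iNP, and fell by 0.62 ± 0.09 (adjusted p = 0.003). The lines were apart for both. B2m, the light chain that all class I molecules share, read 11.53, 11.91, 11.71, 11.88, 11.63 and 11.59 in iP and 12.29, 12.45, 12.21, 12.36, 12.15 and 11.91 in iNP. It fell by 0.52 ± 0.10 (adjusted p = 0.0217), with iNP animal 12 level with iP animal 2. That call was lost in 7 of the 12 fits without 1 rat (iP animals 1, 3, 5 and 6, iNP animals 7, 8 and 10; highest adjusted p = 0.0725).

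Of 20 tested genes of the complex and of antigen processing, these 3 fell, none rose and 17 were not called, where 0.662% of all tested genes were called. This list too was compiled with earlier results of these data known. In all 14 were lower and 6 higher in iP (median -0.08), and 5 had an unadjusted p under 0.05, where 6.77% of all tested genes did. The member furthest from 0 was the uncalled Cd74, at 0.99 (adjusted p = 0.842), with overlapping lines. RT1-CE16 (-0.39) and RT1-M3-1 (-0.26) lay on the same side without passing. The peptide transporter genes Tap1 (-0.08) and Tap2 (0.03), the immunoproteasome gene Psmb8 (0.02) and the class II genes RT1-Ba (-0.01) and RT1-Da (0.03) differed little, and are given here as examples chosen after their values were seen. The RT1-A and RT1-CE12 probe sets have names whose suffix marks a match to several members of a gene family, so which member each one measured is uncertain. Endothelial cells express class I strongly. The mean of 7 tested endothelial and mural markers was 8.33 to 8.54 in iP and 8.30 to 8.93 in iNP, 6 of the 7 were lower in iP, and none was called (0 at an unadjusted p under 0.05). The part of that difference in the class I values was not tested. The 5 blood cell transcripts tested were also all lower in iP without a call (0 at an unadjusted p under 0.05, median -0.29, mean level 10.70 to 11.25 in iP and 10.89 to 11.47 in iNP).

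The 250 bases before the gene start are shown for B2m and for RT1-CE12, since a light chain and a heavy chain of one complex fell together; RT1-CE16, which was not called, is given beside them. The sequences are from RefSeq (build GRCr8), read 5′ to 3′ on the gene's strand, at chr3:129549080-129549329 (+), chr20:3347226-3347475 (−) and chr20:3265444-3265693 (−). Capitals mark GAAA followed, 2 bases on, by GAAA again, a core found in interferon response elements, which was searched on both strands.
B2m: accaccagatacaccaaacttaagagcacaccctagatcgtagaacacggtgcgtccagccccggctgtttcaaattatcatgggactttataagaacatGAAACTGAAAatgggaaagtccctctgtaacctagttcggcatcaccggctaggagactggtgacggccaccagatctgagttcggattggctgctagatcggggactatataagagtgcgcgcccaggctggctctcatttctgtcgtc
RT1-CE12: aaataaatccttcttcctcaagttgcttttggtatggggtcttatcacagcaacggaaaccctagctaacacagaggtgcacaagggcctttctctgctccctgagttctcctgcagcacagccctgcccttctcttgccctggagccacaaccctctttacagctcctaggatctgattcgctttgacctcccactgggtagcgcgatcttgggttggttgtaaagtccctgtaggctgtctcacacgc
RT1-CE16: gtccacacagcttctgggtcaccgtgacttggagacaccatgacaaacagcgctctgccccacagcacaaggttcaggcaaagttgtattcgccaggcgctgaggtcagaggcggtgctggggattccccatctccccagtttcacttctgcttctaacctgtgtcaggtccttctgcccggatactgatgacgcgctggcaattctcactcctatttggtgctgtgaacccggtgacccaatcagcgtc

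The B2m sequence held 1 such core, beginning 150 bases before the gene start, and neither RT1 sequence held one. Over 27457 rat promoters of the same length 3.29% held it. CCAAT, searched likewise, was found in the sequences of B2m and RT1-CE16 and in 34.3% of all promoters, and TATAAA in that of B2m and in 13.1%. These matches describe the letters in the windows and nothing more.

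P2ry12 is the purine receptor by which resting microglia sense injury. It read 8.06, 8.96, 9.16, 9.00, 9.38 and 8.73 in iP and 9.76, 9.61, 9.70, 9.98, 9.88 and 9.95 in iNP, and fell by 0.93 ± 0.18 (limma adjusted p = 0.0252) with no overlap and iP animal 1 lowest. The call was lost in 5 of the 12 fits without 1 rat (iP animal 6, iNP animals 7, 10, 11 and 12; highest adjusted p = 0.0777). None of the other 8 tested microglia and macrophage markers was called, and 3 of the 9 had an unadjusted p under 0.05, where 6.77% of all tested genes did. The members ran from P2ry12 to Cd74 at 0.99 (adjusted p = 0.842), the class II invariant chain, and Cx3cr1 (-0.03), Aif1 (-0.09) and C1qb (-0.09) lay between them; these 4 were chosen after their values were seen. Ctss, a lysosomal protease gene, was at -0.27 (adjusted p = 0.0705) and the leukocyte phosphatase gene Ptprc at 0.68 (adjusted p = 0.183); both were without overlap and on opposite sides. The mean of the 9 markers was 9.03 to 9.49 in iP and 9.12 to 9.61 in iNP, so the lines overlapped in this mean. Members on opposite sides offset each other in it.

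The remaining named falls covered mitochondrial, matrix and cytoskeletal genes. Fn1, which encodes fibronectin, read 9.40 to 9.61 in iP and 10.15 to 10.59 in iNP and fell by 0.75 ± 0.09 (limma adjusted p = 0.00065). A pair of dim probe sets on another Fn1 record differed by -0.48 and 0.07, neither called. Atic and Fn1 are next to each other among protein-coding genes in GRCr8, and they moved in opposite directions. Sdhaf2, an assembly factor of succinate dehydrogenase, fell by 0.70 ± 0.12 (9.84 to 10.07 in iP, 10.36 to 11.05 in iNP). Mtarc2, a molybdenum enzyme of the outer mitochondrial membrane, fell by 0.52 ± 0.10 at one probe set, and the brighter one on its record was at -0.17 (adjusted p = 0.815). Lxn, which encodes the carboxypeptidase inhibitor latexin, fell by 0.54 ± 0.11. Eno1, the glycolytic enolase gene, fell by 0.37 ± 0.08 at its dimmer probe set and was at -0.17 at the brighter (adjusted p = 0.494). These last calls were near the threshold. Leaving out 1 rat at a time ended the call of Lxn in 11 of 12 fits (every rat but iP animal 3), of Eno1 in 8 (iP animals 1, 2, 5 and 6, iNP animals 7, 9, 10 and 12) and of Mtarc2 in 7 (iP animals 3 to 6, iNP animals 7, 10 and 11). The highest adjusted p values were 0.108 for Lxn, 0.0963 for Eno1 and 0.0817 for Mtarc2.

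The 20 other called probe sets with 1 symbol kept their call in all 12 of these fits. A further 7 calls had no gene name or several and are given without one. Of these, 2 were higher in iP, by 1.69 ± 0.26 and 0.62 ± 0.11, and 5 lower, by differences of -0.37 to -0.98.

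Glutamate and GABA receptor genes, the backbone of hippocampal transmission, gave no call by limma. An unadjusted p under 0.05 was met by 1 ionotropic and 1 metabotropic glutamate receptor gene, 1 GABA-A subunit gene and 3 of 9 genes of GABA synthesis, uptake and GABA-B receptors, where 6.77% of all tested genes met it. Of 14 tested ionotropic glutamate receptor genes 11 were higher and 3 lower in iP, with a median of 0.26; Grin2b, an NMDA receptor subunit gene, was at 0.47 (9.45 to 10.74 in iP, 9.46 to 10.16 in iNP) and the kainate receptor gene Grik5 at -0.23. Over all tested genes 1493 were higher and 1681 lower, with a median of -0.01. Of 8 metabotropic receptor and scaffold genes Homer3 was at 0.62 and Grm4 at -0.29. Among 8 GABA-A receptor subunits the median was 0.16, Gabrb1 was at 0.65 (adjusted p = 0.159 by limma) and Gabrb2 at -0.18. Gad1, which makes most GABA in the brain, lay at 11.86 to 12.27 in iP and 12.28 to 12.41 in iNP, a difference of -0.30 that left no overlap yet did not pass (adjusted p = 0.139). Its partner Gad2 was at 0.63, with overlap.

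Immediate early genes are switched on by neuronal firing. All 16 tested missed the threshold, 13 of them lower and 3 higher in iP (median -0.20), including Arc at -0.25 (adjusted p = 0.391 by limma) and Nr4a1 at -0.31 (adjusted p = 0.506). The lines overlapped for each of the 16, and 4 had an unadjusted p under 0.05, where 6.77% of all tested genes did. Of 35 kinases, phosphatases and partners of synaptic plasticity, Akap11 rose and 34 were not called, among them Adcy2 (-0.31) and Camk2d (-0.46). Neurotrophins and their receptors (11 tested, median -0.02), interneuron peptides and calcium-binding proteins (17, median 0.10) and corticosteroid and stress hormone genes (7, median 0.11) gave no call. Nor did receptors for serotonin, acetylcholine and opioids (18, median 0.03), voltage-gated channels (28, median -0.01), or synaptic vesicle proteins (23, median 0.03). In these 6 lists 0, 1, 0, 1, 5 and 1 genes, in that order, had an unadjusted p under 0.05, against the same 6.77% of all. Among the channels, Scn3a was at -0.52 and Scn1a at 0.53 (adjusted p = 0.276 and 0.28), 2 sodium channel genes on opposite sides.

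**Figure D3:**
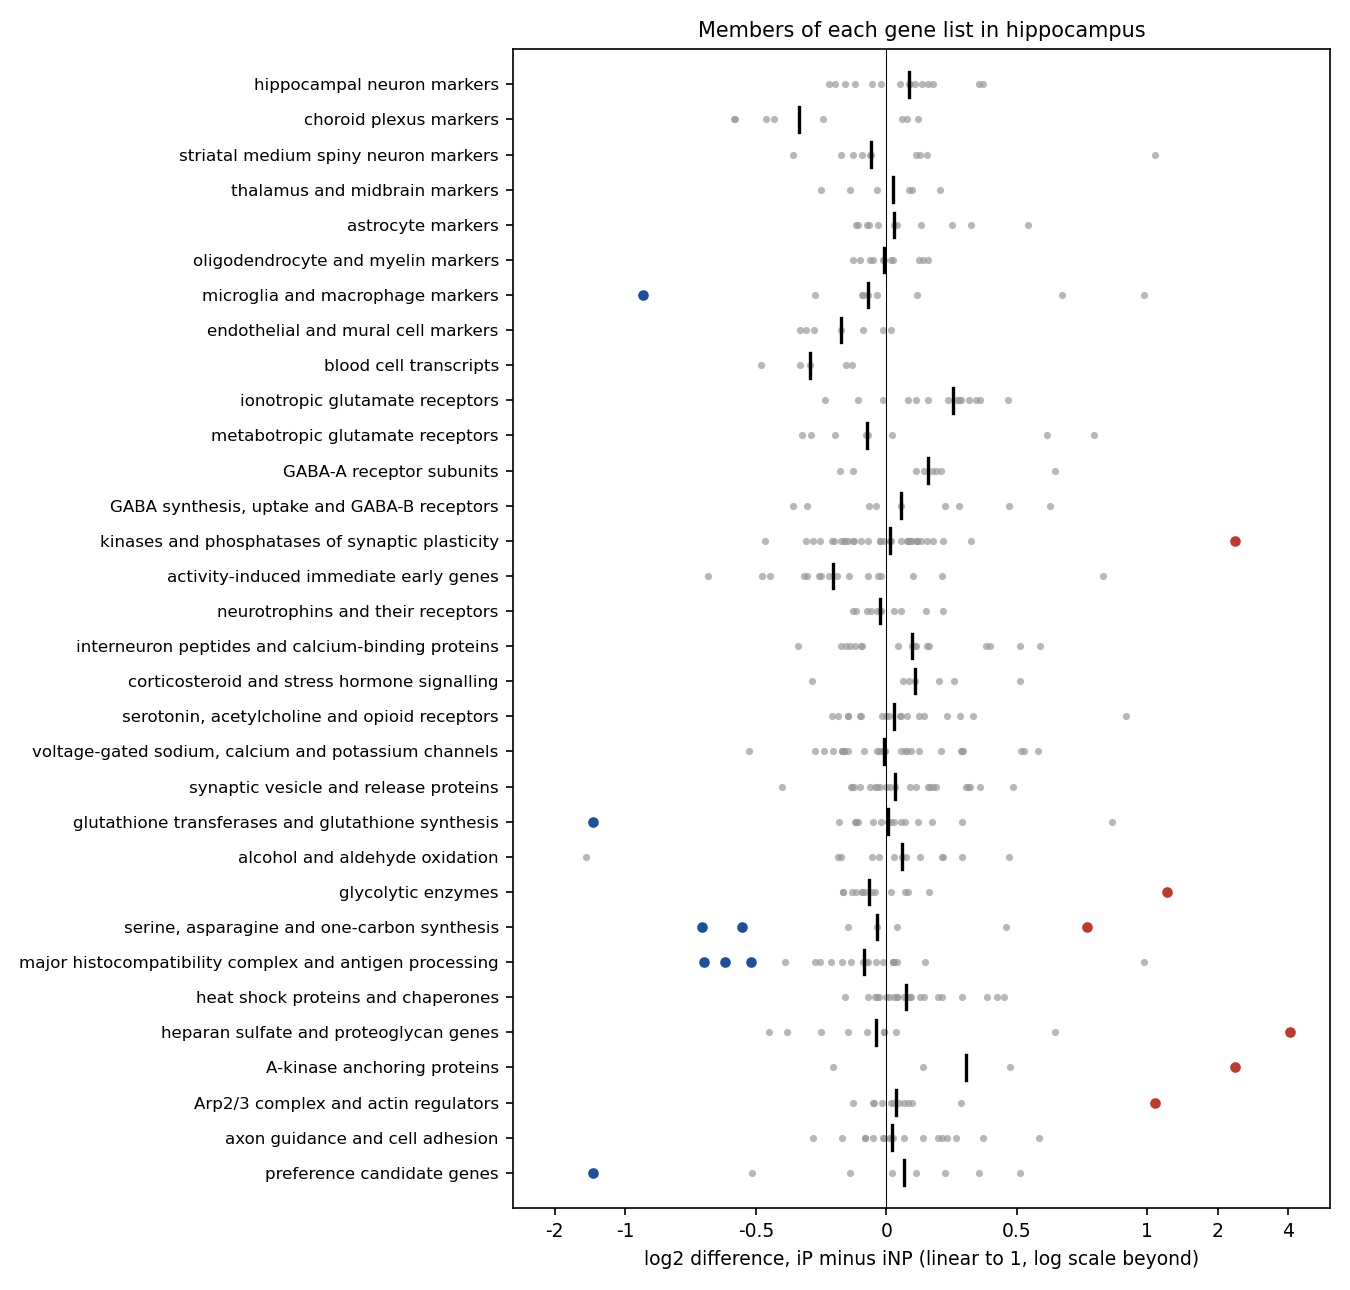
Log2 difference in hippocampus (iP minus iNP; linear between -1 and 1, log scale beyond) of each tested gene in the 32 gene lists. Red dots were called higher and blue dots lower in iP, gray dots were not called, and black ticks are list medians; the largest called differences, such as Hs6st1 at 4.05, stand apart in lists whose medians run from -0.34 to 0.31.

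In the plot of the lists Hs6st1, Akap11, Pgk1, Arpc4 and Gsta4 stand apart from the other members of the lists of their families. The called class I genes, and Phgdh, Sephs2 and Atic, lie nearer to the other members of their lists. Of 14 glycolytic enzyme genes Pgk1 alone rose, with Pfkp at -0.17 and a list median of -0.07. Of 10 heparan sulfate and proteoglycan genes Hs6st1 rose; Gpc3 was at 0.65 and Gpc1 at -0.25. Of 12 genes of the Arp2/3 complex and actin regulation Arpc4 rose, with Wasl at 0.29 and Pfn1 at 0.10. Of 4 tested A-kinase anchoring proteins Akap11 rose, with Akap12 at 0.47 and Akap8 at -0.21. Axon guidance and adhesion genes (18) had none called at the brightest probe set (1 at an unadjusted p under 0.05), which for Slit1 is the one at 0.59. Of 22 chaperone genes none was called, with Pdia4 at 0.39 and Hspb1 at 0.45. Of the 22, 3 had an unadjusted p under 0.05, where 6.77% of all tested genes did. The 32 lists hold 386 tested genes, and 12 different genes among them were called, where 21 of all 3174 tested genes (0.662%) were. The lists were compiled with earlier results of these data known, so this count is no result about the families.

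Alcohol and aldehyde oxidation genes gave no call by limma among 13 tested. Of these, 4 (30.8%) had an unadjusted p under 0.05, against 6.77% of all tested genes, so a smaller difference may have been missed. Aldh1a2, which makes retinoic acid, had the most negative difference at -1.47 ± 0.54 (adjusted p = 0.492), with 4.43 to 6.63 in iP and 5.54 to 7.66 in iNP. Cat, catalase, was at 0.07, Aldh2 at 0.06 and Cyp2e1 at -0.03; these 3 oxidise ethanol or acetaldehyde and were chosen after their values were seen. Of 8 tested preference candidates, a list compiled with earlier results of these data known, Gsta4 fell and 7 were not called. Npy (-0.14), Grm7 (0.02), Pdyn (0.11) and Gabbr1 (0.23) lay near 0. Crh (0.51), Neurod1 (0.36) and Vps52 (-0.51, adjusted p = 0.134) lay further off, and the lines overlapped for all 7. The Crh value rests on iNP animal 9, which was at the floor of 4.00; without that rat the difference was -0.06.

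Just above the threshold were Tmed2 (0.67, limma adjusted p = 0.0526), Hsd3b7 (-1.82 ± 0.39, 0.0526), Fntb (0.45, 0.0526), Azi2 (-0.45, 0.053), B4galt6 (-0.56, 0.0539) and Nos2 (1.33, 0.0558). Just below it were Lxn (-0.54, 0.0406) and Slit1 (0.57, 0.0411).

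The same animals gave the other regions, so agreement between regions is not agreement between independent rats. In other regions 2 arrays were unlike their neighbours. On the cortex array of iP animal 5 the Gapdh control ratio was 6.14 (log2, 3′ over 5′) and the median signal 251, and its Hs6st1 signal was 5.70, against 10.72 to 11.09 on the other iP cortex arrays. Its Akap11 signal was 11.00, where iNP cortex arrays read 8.34 to 9.40. Its Gsta4 signal was 9.68, where iNP cortex arrays read 10.31 to 10.74. Its profile correlated across probe sets at -0.20 with the other cortex arrays and at 0.28 with the amygdala arrays, and for amygdala of iP animal 1 the values were 0.28 with cortex and -0.21 with the other amygdala arrays. Of the 35 calls, 34 had the same sign in all 4 other regions. The exception was Mtarc2, at 0.03 in cortex. In all 4 other regions 9 were also called the same way, in 1 to 3 regions 19, and in none 7; without both of these arrays the counts were 13, 15 and 7, the last being the same 7 probe sets. Striatum shared 24 calls, 68.6% of the hippocampus calls and 54.5% of its own (0.839% of probe sets called there). Amygdala shared 21 (60% and 55.3%, 0.725% called), accumbens 19 (54.3% and 63.3%, 0.572%) and cortex 9 (25.7% and 75%, 0.229%). Without the array of iP animal 5, cortex shared 17 (48.6% and 70.8%, 0.458% called), and without that of iP animal 1 the amygdala shared 23 (65.7% and 45.1%, 0.973%). The named genes called in none of the other 4 regions were B2m, Mtarc2, Grb14, Eno1, Lxn and Slit1. Picking genes by a call in hippocampus and none elsewhere favours smaller differences elsewhere. Those of these named genes were all smaller in size, if only just for Lxn in cortex (-0.535, against -0.537 in hippocampus). The last of the 7 probe sets has no gene name, and its difference was larger in cortex and accumbens. It was at -0.37 in hippocampus, -0.94 in cortex, -0.16 in striatum, -0.33 in amygdala and -0.44 in accumbens. Slit1 was at 0.14 in cortex, 0.22 in striatum, 0.28 in amygdala and 0.32 in accumbens.

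**Figure D4:**
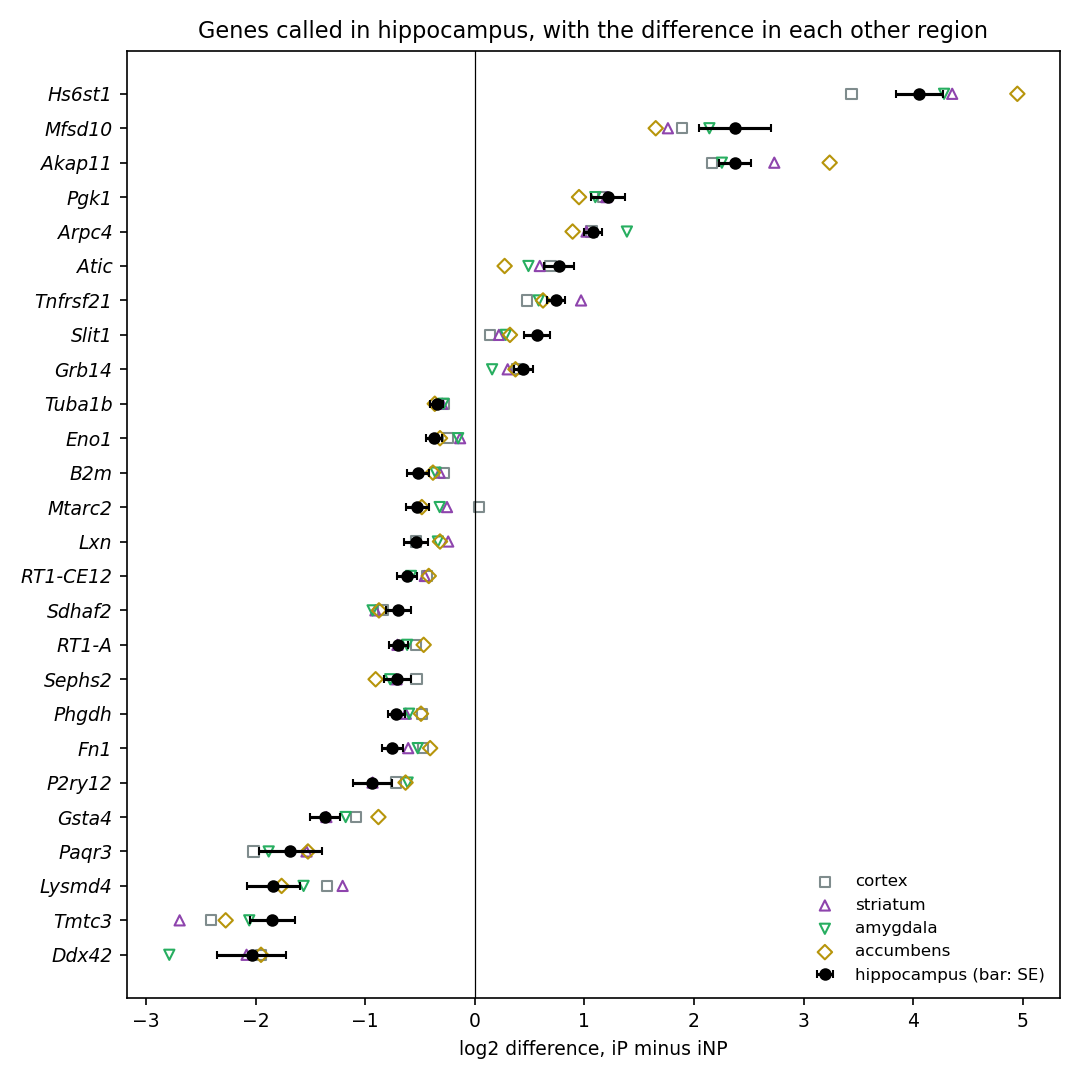
Log2 difference (iP minus iNP, horizontal) of the 26 genes called in hippocampus, with hippocampus as black dots with SE and cortex, striatum, amygdala and accumbens as open symbols. All symbols of a gene lie on the same side of 0 except Mtarc2 in cortex, at 0.03.

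The plot of the called genes by region shows open symbols on both sides of the hippocampus value. The difference between regions was tested directly, as the hippocampus line difference minus that averaged over cortex, striatum, amygdala and accumbens, with each animal as a block. None of the 35 called probe sets passed, and the smallest adjusted p among them was 0.667. Hs6st1 differed from the other regions by -0.20, Akap11 by -0.21 and Gsta4 by -0.25. The calls of the hippocampus were thus not shown to be larger or smaller than those elsewhere.

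Over all 5244 probe sets 1 passed this test (0.0191%), with 294 at an unadjusted p under 0.05 (5.61%). It was Hsd3b7, an enzyme that converts hydroxylated cholesterol on the way to bile acids. Its log2 signal in hippocampus was 6.29, 7.72, 8.67, 6.64, 6.77 and 6.05 in iP, against 9.52, 8.53, 8.96, 8.81, 8.22 and 9.01 in iNP. In iP, 5 of the 6 rats were below every iNP rat and animal 3 lay inside the iNP range. Hippocampus averaged 7.02 ± 0.99 in iP and 8.84 ± 0.45 in iNP (SD, n = 6 each), while the amygdala averaged 8.88 ± 0.55 and 8.81 ± 0.29, the accumbens 8.77 ± 0.56 and 8.75 ± 0.42, and the striatum 8.54 ± 0.26 and 8.95 ± 0.32. The cortex means went the other way, with 8.58 ± 0.59 in iP (n = 5) and 7.73 ± 1.15 in iNP (n = 6). In cortex iNP animals 7 and 12 read 6.05 and 6.48. The other iNP cortex arrays read 8.29 to 8.73, within the iP range of 7.69 to 9.21. The line difference in hippocampus was more negative than the mean of the other regions by 1.94 ± 0.37 (coefficient -1.94, limma adjusted p = 0.0251). In hippocampus alone Hsd3b7 was not called. The call against the other regions was lost in 7 of 12 fits without 1 rat (iP animals 1, 4, 5 and 6, iNP animals 7, 8 and 9), where the difference ranged from -2.21 to -1.68 over the 12 fits and the adjusted p from 0.00389 to 0.27. With the choroid plexus score as a covariate it was -1.97 (adjusted p = 0.0323), and without the cortex array of iP animal 5 and the amygdala array of iP animal 1 it was -1.93 (adjusted p = 0.0352).

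**Figure D5:**
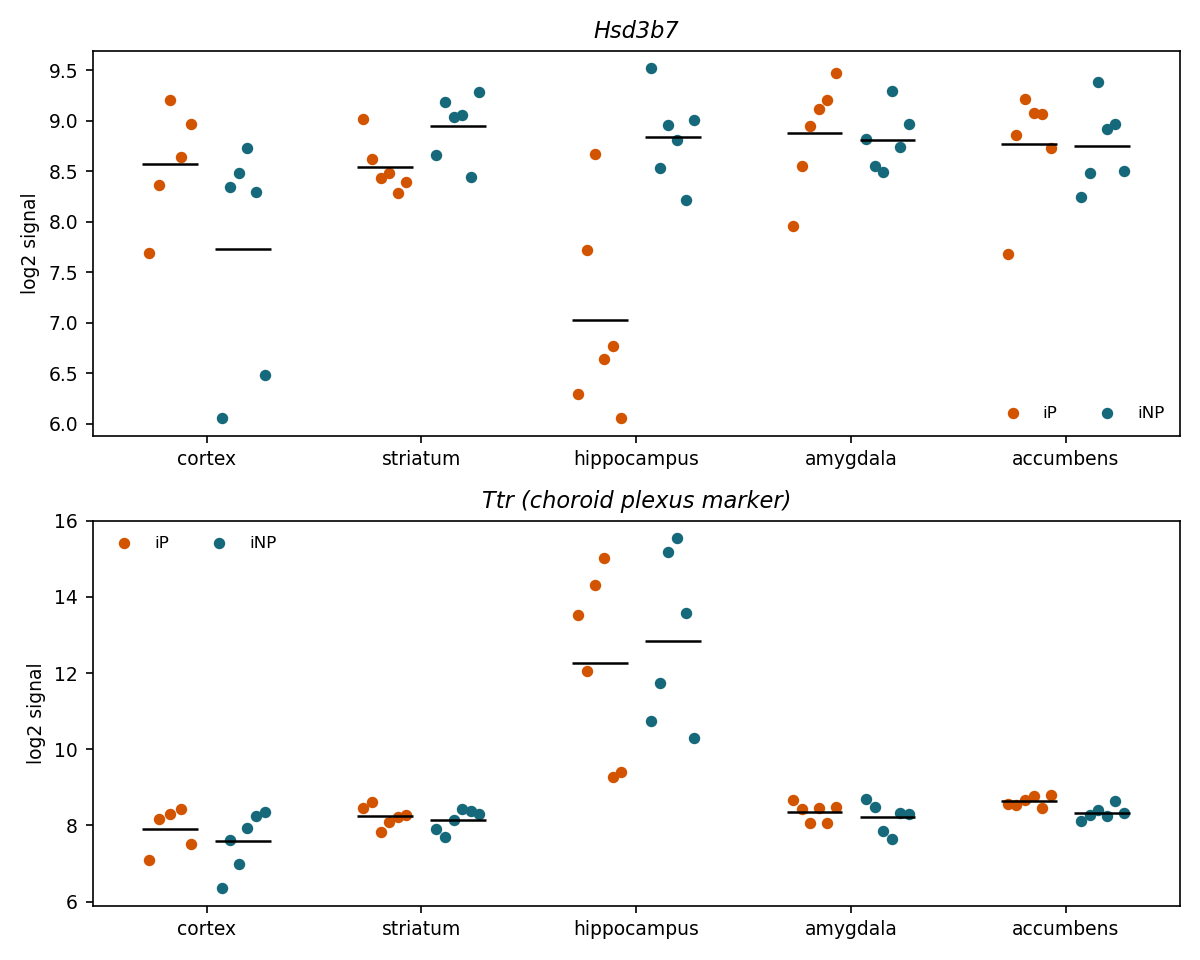
Log2 signal (vertical) of Hsd3b7 (upper panel) and of the choroid plexus marker Ttr (lower panel) in 5 regions, with iP in orange and iNP in teal, points for single rats and bars for means. Hsd3b7 was at 6.05 to 8.67 in iP hippocampus and 8.22 to 9.52 in iNP hippocampus, and Ttr spread from 9.28 to 15.55 across hippocampus with both lines mixed.

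The panels of Hsd3b7 and Ttr show that the low iP rats for Hsd3b7 hold both high and low Ttr. The next smallest adjusted p against the other regions was 0.272, shared by Aldh1a2 (-1.82 ± 0.43), Ptgfrn (-0.48) and Dact2 (-0.77), none of which passed. The glutamate receptor gene Gria1 (0.59, adjusted p = 0.301) and the cytokine-signalling inhibitor gene Cish (1.15, adjusted p = 0.318) came after them.

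The 4 arrays with the highest Ttr were iNP animals 10 and 9 (15.55 and 15.18) and iP animals 4 and 3 (15.01 and 14.32). A fit of the 8 arrays left, chosen after seeing the data, called 12 probe sets, 5 higher and 7 lower, all of them among the 35. Hs6st1, Akap11, Pgk1, Arpc4, Tnfrsf21, Tmtc3, Lysmd4, Fn1 and RT1-A kept a call, as did the probe sets of larger fall of Gsta4 and Phgdh, while Mfsd10 (2.15), Ddx42 (-2.19) and Paqr3 (-1.61) lost theirs at differences close to those of all 12 arrays; P2ry12, Sephs2, B2m and RT1-CE12 lost theirs too, at differences of -1.02, -0.76, -0.53 and -0.53. So did the other probe sets of Gsta4 (-0.78) and Phgdh (-0.58), as well as Atic (0.81), Sdhaf2 (-0.71), Tuba1b (-0.38), Slit1, Grb14, Lxn, Mtarc2 and Eno1. With the choroid plexus score as a covariate on all 12 arrays 29 probe sets were called. Among the named genes Slit1, Grb14, Lxn, Mtarc2 and Eno1 then missed the threshold, at differences of 0.58, 0.44, -0.51, -0.52 and -0.36.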

How the data were processed

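Each array measured total RNA of 1 brain region of 1 rat. The authors deposited linear intensity values, 1 per probe set. The sources used here do not give the program that produced these. The mean of each array after trimming 2% at both ends was equal across arrays, so the deposited values were already scaled, and no scaling was added. Precision is limited by the number of rats, since arrays have no depth.

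Signals under 16 were set to 16 and log2 transformed. The 59 control probe sets and the 40% of probe sets with the lowest mean were left out of 8799, which left 5244 (4372 with 1 gene symbol, 206 with several, 666 with none). Symbols come from GEO's platform annotation; 6985 of 7006 probe sets with 1 symbol matched the RefSeq GRCr8 gene table, and 0 symbols changed. Line differences were fitted with limma 3.58.1 in R 4.3.3 on the 12 hippocampus arrays (empirical Bayes with an intensity trend, two-sided, Benjamini-Hochberg over all tested probe sets). The difference from the other 4 regions used all 59 arrays with the animal as a fixed block. Regions are paired by the animal numbers in the titles, and the lines share no animal number. Both fits were tried on simulated arrays, with noise drawn independently for each probe set, which real arrays need not have. The line fit recovered 47.5% of differences of 0.5 and 87.5% of those of 1, and 5.69% of its calls were false. The fit against the other regions recovered 86% of differences of 1, and 4.36% of its calls were false. A call in either direction counted as recovered. The simulated arrays held many more true differences than either fit called in the real data. Recovery under a Benjamini-Hochberg threshold depends on that number, so these shares do not give the power of either fit here. Array quality was compared with exact permutation tests over 924 splits.

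The comparison, the gene lists and the rule for named genes were chosen with earlier results of these data known. The rule takes probe sets with 1 symbol. It names the 20 largest rises and falls among the calls, all other probe sets of called genes, and the 6 smallest adjusted p values above the threshold. It also names the calls against the other regions, all called and 2 uncalled genes of every list, and the preference candidates in full. Within a list each gene is represented by its brightest probe set. The 4 genes after the call against the other regions, and genes the text marks so, were chosen after their values were seen. Alternatives varied the filter, floor, log offset, scaling, variance model, covariates, samples and probe set summary.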

Additional observations from a re-analysis of the deposited data

Results flagged for a closer look

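In groups of 6 rats, 16 of 234 sets of values held 1 rat far from the other 5 by Dixon's gap test, where chance gives about 1 in 20. Among called genes, iP animal 2 was highest for Pgk1 (13.85, others 13.29 to 13.49, log2) and lowest for Slit1 (9.76, others 10.14 to 10.34). For Ddx42, iP animal 1 was lowest at 5.42 (others 6.80 to 7.49), and for Tmtc3 iP animal 6 was highest at 7.64 (others 6.52 to 6.81). In iNP, animal 10 was highest for Gsta4 (11.27, others 10.44 to 10.66) and RT1-CE12 (11.99, others 11.41 to 11.63).

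Among genes that were not called, iP animal 4 was highest for Tmed2 (10.66, others 10.37 to 10.45) and lowest for Gabrb1 (11.16, others 11.88 to 12.17) and Akr1b1 (11.47, others 11.74 to 11.88), and iP animal 2 was highest for Gabrb2 (12.09, others 11.70 to 11.81). In iNP, animal 7 was highest for Nos2 (8.66, others 6.98 to 7.59) and lowest for Ptprc (7.32, others 8.25 to 8.45), and animal 8 was lowest for Asns (8.46, others 8.99 to 9.29). Crh was at the floor in iNP animal 9 (4.00, others 7.01 to 7.78). In iNP animal 10, which had the highest Ttr, Gja1 was lowest (9.68, others 10.49 to 10.88), as was the mean of the astrocyte markers (11.46, others 11.76 to 11.87).

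The line difference of Hsd3b7 in hippocampus differed from the mean of the other 4 regions by -1.94 (limma adjusted p = 0.0251), the only probe set to pass that test.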

How the results depend on the processing

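The count of 35 calls stayed between 25 and 36 when each rat was left out in turn. It was 37 with no filter on dim probe sets, 31 with 60% dropped, 36 with a floor of 64, 37 with log2(signal + 16), 37 after quantile normalization, 30 with no variance trend, 35 with the robust fit, 44 with array weights, 29 with the choroid plexus covariate and 35 with the Gapdh ratio as covariate. With all 59 arrays it was 47 with the animal as a random replicate block and 46 with no replicate block, and 26 genes were called when a gene's probe sets were averaged. Without the 4 arrays of highest Ttr, a setting added after seeing the data, it was 12, with fewer samples. The count of 1 against the other regions was 0 with no filter, 0 with 60% dropped and 1 with no replicate block. With no filter the Hsd3b7 difference was still -1.94, at a limma adjusted p of 0.0569 over 8740 probe sets. With 60% dropped the Hsd3b7 probe set was among those left out. The count was 0 to 4 when each rat was left out (2 without iP animal 3, 4 without iNP animal 12), and the cause of that spread was not tested. Calls shared with cortex numbered 17 without the cortex array of iP animal 5 and 9 with it, and calls shared with amygdala 23 without the array of iP animal 1 and 21 with it, both settings added after seeing the data. Called named genes kept their call in 606 planned cases and lost it in 87, and in added settings kept it in 11 and lost it in 17; none reversed. Genes not called gained a call in 40. Reversals touched only genes that were not called: Grm7 (-0.0250 to 0.0636 when each rat was left out, below 0 without iP animal 5, iNP animal 8 or iNP animal 12), Crh (-0.0617 to 0.695, the lowest without iNP animal 9, and -0.262 without the arrays of highest Ttr), Gabbr1 (-0.000959 to 0.588, the lowest without iNP animal 10), Slc6a4 (-0.0788 without the arrays of highest Ttr), and, with probe sets averaged, Gabrb2 (0.0496) and Avp (0.154); for these the cause was not tested.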

Other observations

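Nos2, the inducible nitric oxide synthase gene, read 8.40 to 9.65 in iP hippocampus and 6.98 to 8.66 in iNP hippocampus, and its difference of 1.33 ± 0.29 just missed the threshold (limma adjusted p = 0.0558). Aqp4, the water channel gene of astrocyte end feet, was at 0.54 ± 0.26 (adjusted p = 0.713) and the gap junction gene Gja1 at 0.32 ± 0.17 (adjusted p = 0.789), with overlapping lines. Gnal, a striatal G protein gene, was at 1.08 ± 0.43 in hippocampus (adjusted p = 0.574), while the mean of 10 striatal neuron markers lay at 9.21 to 9.29 in iP and 9.06 to 9.31 in iNP.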
